A study of Mus musculus with 12 samples.

Results

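The immediate early genes described here were Fos, Fosb, Jun, Junb, Egr1, Atf3, Ier2, Nr4a1, Zfp36 and Btg2, chosen by name and matched to the counted genes through their Ensembl identifiers. All 10 were among the 57180 genes in the count tables, and all 10 passed the filter on low counts with the 17163 genes that were tested. Poly(A) RNA was sequenced from kidneys of 12 male C57BL/6J mice, a common inbred laboratory strain, after 28 days of daily intraperitoneal injection. The 4 Control mice received the vehicle, saline with Tween 80, the 4 mice of the 10CBD group received cannabidiol (CBD, a non-intoxicating compound of Cannabis sativa) at 10 mg/kg body weight, and the 4 mice of the 20CBD group received 20 mg/kg. All mice were young adults without any genetic change, and all were killed under isoflurane before a piece of kidney was taken. The groups thus shared the daily injections and the anaesthetic. The study's methods give no order or time of killing by group. The comparison asked whether the genes differed between the groups, and how far they varied between mice that had been treated alike.

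Immediate early genes are transcribed within minutes of a stimulus from factors already present in the cell, without new protein synthesis, and their transcripts are short-lived. Growth factors, stretch, ischaemia, stress and the handling of tissue can raise them in the kidney, chiefly through ERK and p38 kinases, serum response factor with its ternary complex partners, and CREB. Fos and Fosb encode FOS-family subunits and Jun and Junb encode JUN-family subunits of the AP-1 transcription factor, Egr1 encodes a zinc-finger transcription factor, Nr4a1 an orphan nuclear receptor, and Atf3 a stress-induced factor of the ATF/CREB family. Zfp36 (tristetraprolin) and Btg2 act on messenger RNA, the first by binding AU-rich elements and the second by recruiting the CCR4-NOT deadenylase. Ier2 encodes a small nuclear protein of less settled function.

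The sequence just before the transcription start was available for 8 of the 10 genes in the RefSeq promoter table, all but Egr1 and Ier2. It was read as the 250 bases before the start, on the strand of the gene, on build GRCm38.p6. Of the 8 promoters, 4 are printed as examples. They were chosen with the results described further on known, and no link between the elements and those results was tested. Capitals mark matches to the CRE (TGACGTCA) and its shorter form (TGACGT), both read by CREB and ATF factors, the EGR element (GCGGGGGCG) and the CArG box, read by serum response factor. Each motif was searched on both strands, and the short CRE lies within the full one.
Fos: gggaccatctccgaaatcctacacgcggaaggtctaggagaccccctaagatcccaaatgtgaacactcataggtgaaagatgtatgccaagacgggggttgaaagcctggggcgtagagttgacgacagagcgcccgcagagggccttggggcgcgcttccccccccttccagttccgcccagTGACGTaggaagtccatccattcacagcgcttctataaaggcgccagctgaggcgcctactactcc
Nr4a1: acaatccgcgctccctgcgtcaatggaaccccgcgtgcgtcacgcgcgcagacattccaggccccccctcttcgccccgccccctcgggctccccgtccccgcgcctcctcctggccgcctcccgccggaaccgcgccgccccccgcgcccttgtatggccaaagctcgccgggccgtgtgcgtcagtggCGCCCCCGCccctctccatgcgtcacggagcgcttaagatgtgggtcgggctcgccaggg
Zfp36: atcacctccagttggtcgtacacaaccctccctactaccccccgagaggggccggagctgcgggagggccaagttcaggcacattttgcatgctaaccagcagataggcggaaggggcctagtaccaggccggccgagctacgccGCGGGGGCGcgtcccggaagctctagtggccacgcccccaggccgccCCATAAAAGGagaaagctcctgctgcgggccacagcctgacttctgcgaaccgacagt
Btg2: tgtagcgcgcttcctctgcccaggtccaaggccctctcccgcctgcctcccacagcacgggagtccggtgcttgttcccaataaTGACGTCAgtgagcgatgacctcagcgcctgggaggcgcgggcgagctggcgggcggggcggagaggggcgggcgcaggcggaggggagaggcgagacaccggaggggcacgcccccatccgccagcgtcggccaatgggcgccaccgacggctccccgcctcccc
The Fos sequence is chr12:85473640-85473889 on the plus strand and holds a short CRE that begins 66 bases before the start. The Nr4a1 sequence is chr15:101266596-101266845 on the plus strand and holds the EGR element on the opposite strand, beginning 60 bases before the start. The Zfp36 sequence is chr7:28379229-28379478 on the minus strand, with the EGR element 105 bases and the CArG box 58 bases before the start. The Btg2 sequence is chr1:134079156-134079405 on the minus strand, with the full CRE 166 bases before the start. Among all 32851 promoters of the table, 1.55% held the full CRE, 6.47% the short CRE, 2.57% the EGR element and 1.47% the CArG box. Of the 8 members in the table, 1, 3, 3 and 1 held them, respectively, and the AP-1 element TGACTCA, present in 4.46% of all promoters, was found in 0 of the 8. These matches describe letters in a short window and were not tests of binding.

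In these kidneys the transcripts covered a wide range of levels. Values are given as CPM, the count of a gene relative to the total of its library, after TMM normalization, which scales libraries to each other. Per kilobase of the canonical transcript, the Control mean of Zfp36 was 12.0 CPM per kb and that of Jun 11.4, followed by Btg2 (6.22), Junb (4.49), Nr4a1 (4.35), Egr1 (3.54) and Ier2 (3.45). Fos (0.647), Atf3 (0.634) and Fosb (0.291 CPM per kb) formed the low end. Neighbours in this order such as Zfp36 and Jun, or Junb and Nr4a1, lay within each other's spread between mice. Fos had between 3 and 61 counts in a library, Fosb between 8 and 60 and Atf3 between 7 and 50, so counting error alone gave these genes a coefficient of variation of 0.220, 0.214 and 0.193, compared with 0.0384 for Zfp36.

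The libraries held between 15417867 and 23532088 counts on genes, and no pair of libraries was identical. The share of counts on mitochondrially encoded genes ranged from 3.53% to 23.4%, and 4 libraries (Control 2, 10CBD 1, 10CBD 3 and 20CBD 3) were below 10%. The kidney label was borne out by proximal tubule markers, whose summed level was 5673 to 8765 CPM over all mice. This sum lay between 6990 and 8765 CPM in Control, 5763 and 6877 in 10CBD and 5673 and 6190 in 20CBD, and 1 of its 6 genes passed the test, as lower in 20CBD than in Control. In whole tissue, fewer cells of a type and less RNA per cell cannot be told apart.

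None of the 10 immediate early genes passed the test in any comparison (edgeR quasi-likelihood test, Benjamini-Hochberg adjusted p under 0.1 over all genes tested). Of all genes tested, 0.0291% were called in 10CBD against Control, 0.303% in 20CBD against Control and 0.0% in 20CBD against 10CBD, and 0.14% for the mean of both doses against Control. The smallest adjusted p of a member was 0.709, 0.475, 0.758 and 0.461 in these comparisons. DESeq2 and limma-voom also called 0 of the 10, although DESeq2 gave no adjusted p for Fos, Fosb and Atf3 in 20CBD against 10CBD. At an unadjusted edgeR p under 0.05, 3 members were lower in 10CBD than in Control (Nr4a1, Egr1 and Btg2), and 0 were higher, where 2.34% of all genes tested were lower and 3.33% higher by this measure. In 20CBD against Control 1 member was higher (Zfp36) and 0 lower, beside 4.92% and 3.53% of all genes. Between the doses 1 was higher and 1 lower in 20CBD (Zfp36 and Atf3), beside 3.47% and 2.84% of all genes. For the mean of both doses 2 were lower (Nr4a1 and Jun) and 0 higher, beside 2.95% and 4.09% of all genes. The median log2 fold change of the 10 members was −0.34 in 10CBD and −0.22 in 20CBD against Control, and 0.36 in 20CBD against 10CBD, beside medians over all genes tested of 0.012, 0.015 and −0.0033. The 3 comparisons share groups, so their values are not independent of each other. The median in 20CBD against Control depended on single mice: it was 0.13 without Control 1 and 0.041 without 20CBD 1.

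**Figure D1:**
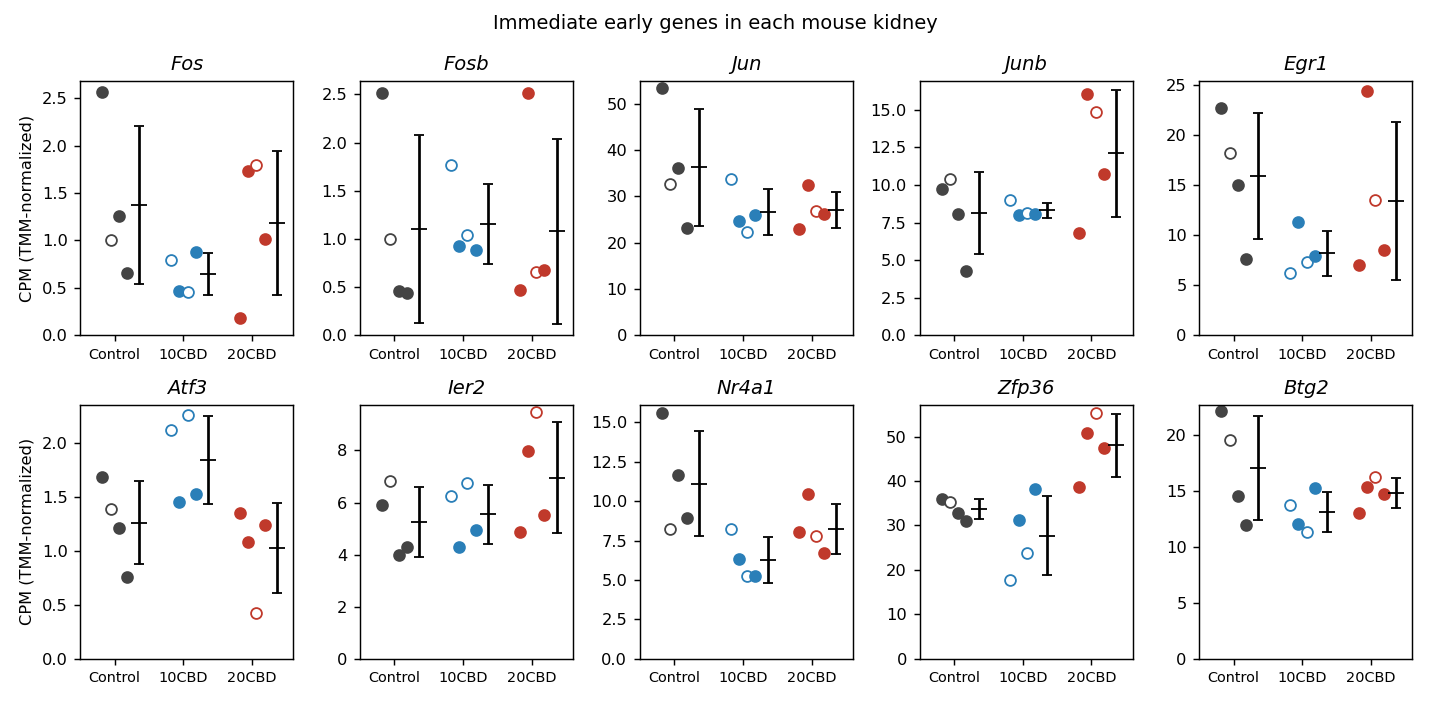
Expression of the 10 genes in each of the 12 mice, in CPM on linear axes that start at 0, by group. Points are mice in the order of their replicate numbers, open points are the 4 libraries with under 10% of mitochondrial counts, and the bar beside each group is its mean ± SD (n = 4). Zfp36 was the only member for which all 20CBD mice lay above all Control mice.

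Zfp36 was the member with the clearest separation between groups. It stood at 35.9, 35.3, 32.8 and 30.9 CPM in Control mice 1 to 4, at 17.7, 31.3, 23.7 and 38.2 CPM in 10CBD mice 1 to 4, and at 38.7, 50.8, 55.3 and 47.5 CPM in 20CBD mice 1 to 4. All 4 mice of 20CBD lay above all Control mice, while 10CBD mice lay on both sides of the Control range. The means were 33.7 ± 2.30, 27.7 ± 8.94 and 48.1 ± 7.03 CPM (SD, n = 4 each). 20CBD was 1.42-fold Control (log2 fold change 0.51, SE 0.19, 95% interval 0.10 to 0.92, edgeR adjusted p = 0.475). An exact permutation test of the mean log2 CPM, two-sided, gave p = 0.0286, the smallest that 4 mice against 4 allow. Groups did not overlap for 1 of the 10 members in this comparison, in the higher direction, beside 2.67% of all genes tested that were higher and 2.63% that were lower in this way. Against 10CBD the difference was 1.74-fold (log2 0.80, SE 0.19, edgeR adjusted p = 0.758, DESeq2 adjusted p = 0.108). There the groups were separated by a narrow margin, 38.7 against 38.2 CPM, and 1.7% of all genes tested were higher in 20CBD without overlap. Among the 8 libraries with at least 10% of mitochondrial counts, the log2 difference between 20CBD and Control was 0.46 and that between the doses 0.40, and 10CBD against Control went from −0.29 to 0.060. In this subset 10CBD 2 and 10CBD 4 were the only 10CBD mice. Leaving out any 1 library kept the log2 difference between 20CBD and Control between 0.43 and 0.60.

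Markers of other cell types were read beside Zfp36, since its transcript occurs in many of them. The summed level of the 5 smooth muscle and mesangium markers was 177 to 227 CPM in Control, 201 to 246 in 10CBD and 263 to 295 in 20CBD, so that here too 20CBD lay above Control, and 1 of the 5 genes passed the test. Apart from this gene and the proximal tubule gene above, no marker of any cell type list was called in any of the 4 comparisons with edgeR. The 7 immune markers summed to 33.0 to 39.8, 31.7 to 42.7 and 30.1 to 51.7 CPM and the 5 endothelial markers to 263 to 290.4, 251 to 276 and 254 to 320 CPM, overlapping between all groups. No marker of these lists was at 0 in all mice of a group. Their part in the Zfp36 difference was not tested.

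Zfp36 protein shortens the life of cytokine transcripts, and its listed targets were scarce in the kidney. Of 9 listed, which include the enzyme gene Ptgs2 besides cytokines, 2 had enough counts to be tested and 0 were called. Il1b, an inflammatory cytokine, was at 1.27 ± 0.43 CPM in Control, 0.459 ± 0.168 in 10CBD and 0.810 ± 0.341 in 20CBD (SD, n = 4 each), with 5 to 42 counts. Its log2 fold change in 10CBD was −1.47 (SE 0.40), with groups that did not overlap and an edgeR adjusted p of 0.702. Of the 2 tested, 1 was lower without overlap in this comparison, beside 1.64% of all genes tested. Cxcl1, a neutrophil-attracting chemokine, was at 0.379 ± 0.090, 0.417 ± 0.170 and 0.819 ± 0.230 CPM with 4 to 17 counts, a log2 fold change of 1.09 (SE 0.37) in 20CBD against Control and an edgeR adjusted p of 0.427.

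Nr4a1 was lowest in 10CBD. The values were 15.6, 8.25, 11.6 and 8.92 CPM in Control, 8.26, 6.33, 5.24 and 5.22 CPM in 10CBD and 8.02, 10.5, 7.80 and 6.72 CPM in 20CBD. No member had groups without overlap in this comparison, beside 1.55% of all genes tested that were higher and 1.64% that were lower in this way. For Nr4a1 the Control and 10CBD ranges touched only where 10CBD 1 (8.26) met Control 2 (8.25), 2 of the libraries with a low mitochondrial share. The means were 11.1 ± 3.33, 6.27 ± 1.43 and 8.25 ± 1.59 CPM (SD, n = 4 each). 10CBD was 0.565-fold Control (log2 −0.82, SE 0.22, 95% interval −1.30 to −0.35), with an edgeR adjusted p of 0.709, a DESeq2 adjusted p of 0.157 and an exact permutation p of 0.0571. 20CBD was 0.743-fold Control (log2 −0.43, SE 0.22). Leaving out 1 library at a time gave log2 values from −0.99 to −0.61 in 10CBD. The libraries with at least 10% of mitochondrial counts gave −1.07, with 10CBD 2 and 10CBD 4 as the only 10CBD mice.

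Egr1, the zinc-finger factor that binds the EGR element, had its lowest mean in 10CBD as well. It stood at 22.7, 18.3, 15.1 and 7.67 CPM in Control, 6.19, 11.3, 7.27 and 7.92 CPM in 10CBD and 7.03, 24.5, 13.6 and 8.53 CPM in 20CBD. Of the Control mice 3 lay above all 10CBD mice, and Control 4 lay among them. The means were 15.9 ± 6.34, 8.18 ± 2.23 and 13.4 ± 7.90 CPM (SD, n = 4 each). 10CBD was 0.510-fold Control (log2 −0.97, SE 0.37, 95% interval −1.76 to −0.19, edgeR adjusted p = 0.812). The exact permutation p was 0.0857. In 20CBD the values ran from below the lowest to above the highest Control mouse, with a log2 difference of −0.25 (SE 0.36).

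Adipocyte markers were among the marker lists that were lower in the treated groups, as the means of Nr4a1, Egr1, Jun, Btg2 and Fos were. The 5 markers summed to 94.7 to 219 CPM in Control, 68.2 to 120 in 10CBD and 68.1 to 113 in 20CBD, with medians of 197, 101 and 94.1 CPM and overlapping ranges. Of the 4 that were tested, 0 were called by edgeR. DESeq2 called 0 in 10CBD against Control, 2 in 20CBD against Control and 1 for the mean of both doses. At an unadjusted edgeR p under 0.05, 3 in 10CBD and 4 in 20CBD were lower than in Control, beside 2.34% and 3.53% of all genes tested. Their median log2 fold changes were −1.65 and −2.76. Distal convoluted tubule markers were lower for 3 of 3 genes at both doses (medians −0.23 and −0.41). Proximal tubule markers were lower for 5 and 6 of 6 (−0.22 and −0.42), and blood markers for 5 and 3 of 5 (−0.45 and −0.077). Thick ascending limb markers went the other way in 10CBD, with 4 of 4 higher, and smooth muscle and mesangium markers in 20CBD, with 5 of 5 higher. No adipocyte marker was at 0 in all mice of a group. The part of any of these marker lists in the differences of Nr4a1, Egr1, Jun, Btg2 and Fos was not tested.

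The FOS-family genes were the most variable. Fos stood at 2.56, 1.00, 1.26 and 0.653 CPM in Control, 0.795, 0.462, 0.452 and 0.880 CPM in 10CBD and 0.176, 1.74, 1.80 and 1.02 CPM in 20CBD. The 10CBD values were low and close together, while 20CBD held the lowest mouse of all and also 2 of the 3 highest. 10CBD was 0.471-fold Control, with a 95% interval of the log2 difference from −2.25 to 0.076 (edgeR adjusted p = 0.870, exact permutation p = 0.114). Fosb stood at 2.52, 1.00, 0.453 and 0.435 CPM in Control, 1.77, 0.924, 1.04 and 0.880 CPM in 10CBD and 0.469, 2.51, 0.660 and 0.678 CPM in 20CBD. One mouse in Control and one in 20CBD were well above the others of their group, and the group means were 1.10 ± 0.98, 1.15 ± 0.42 and 1.08 ± 0.96 CPM (SD, n = 4 each). The 95% intervals of the log2 difference from Control, −1.18 to 1.29 in 10CBD and −1.32 to 1.19 in 20CBD, left room for changes of over 2-fold in either direction.

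Of the JUN-family genes, Jun was higher in Control and Junb in 20CBD, by their means. Jun stood at 53.4, 32.6, 36.1 and 23.2 CPM in Control, 33.7, 24.7, 22.4 and 25.9 CPM in 10CBD and 22.9, 32.4, 26.7 and 26.2 CPM in 20CBD. Control 1 was far above the rest and Control 4 lay among the treated mice. The log2 differences from Control were −0.45 (SE 0.21) in 10CBD and −0.42 (SE 0.21) in 20CBD, each with an exact permutation p of 0.229. Without Control 1 they came to −0.20 and −0.17, the values closest to 0 among those that left out 1 library. Junb stood at 9.74, 10.4, 8.06 and 4.30 CPM in Control, 9.02, 7.98, 8.13 and 8.10 CPM in 10CBD and 6.79, 16.0, 14.9 and 10.7 CPM in 20CBD. Of the 20CBD mice 3 lay above all other mice, and 20CBD 1 lay below all but Control 4. The log2 difference of 20CBD from Control was 0.57 (SE 0.27, 95% interval −0.00021 to 1.14, edgeR adjusted p = 0.590, exact permutation p = 0.229). Junb overlaps the exons of Prdx2 on the opposite strand, which had 879 to 2370 counts, and the strand setting of the counting was not given in the sources used here.

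Atf3, Ier2 and Btg2 showed smaller or less even differences. Atf3 stood at 1.68, 1.38, 1.21 and 0.761 CPM in Control, 2.12, 1.45, 2.26 and 1.53 CPM in 10CBD and 1.35, 1.08, 0.420 and 1.24 CPM in 20CBD. All 10CBD mice lay above all 20CBD mice, a separation in the lower direction that held for 1 of the 10 members and for 1.4% of all genes tested. 20CBD was 0.554-fold 10CBD (log2 −0.85, SE 0.34, edgeR adjusted p = 0.763, exact permutation p = 0.0286). Among libraries with at least 10% of mitochondrial counts, which keep 10CBD 2 and 10CBD 4 of that group, the log2 difference was −0.28. The highest and the lowest value, in 10CBD 3 and 20CBD 3, came from libraries with a low mitochondrial share.

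Ier2 stood at 5.92, 6.82, 3.98 and 4.30 CPM in Control, 6.23, 4.29, 6.73 and 4.93 CPM in 10CBD and 4.86, 7.96, 9.48 and 5.53 CPM in 20CBD. In each group the highest mouse was a library with a low mitochondrial share, and all 4 such libraries lay above their group mean. The log2 differences from Control were 0.081 (SE 0.24) in 10CBD and 0.40 (SE 0.24) in 20CBD. With the mitochondrial share as a covariate they were −0.026 and 0.54.

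Btg2 stood at 22.2, 19.6, 14.6 and 12.0 CPM in Control, 13.8, 12.1, 11.3 and 15.3 CPM in 10CBD and 13.1, 15.4, 16.3 and 14.7 CPM in 20CBD. Control mice 1 and 2 lay above all treated mice and Control mice 3 and 4 among them. 10CBD was 0.766-fold Control (log2 −0.38, SE 0.18, edgeR adjusted p = 0.870), and 20CBD 0.869-fold (log2 −0.20, SE 0.18). The exact permutation p was 0.2 in 10CBD and 0.486 in 20CBD.

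**Figure D2:**
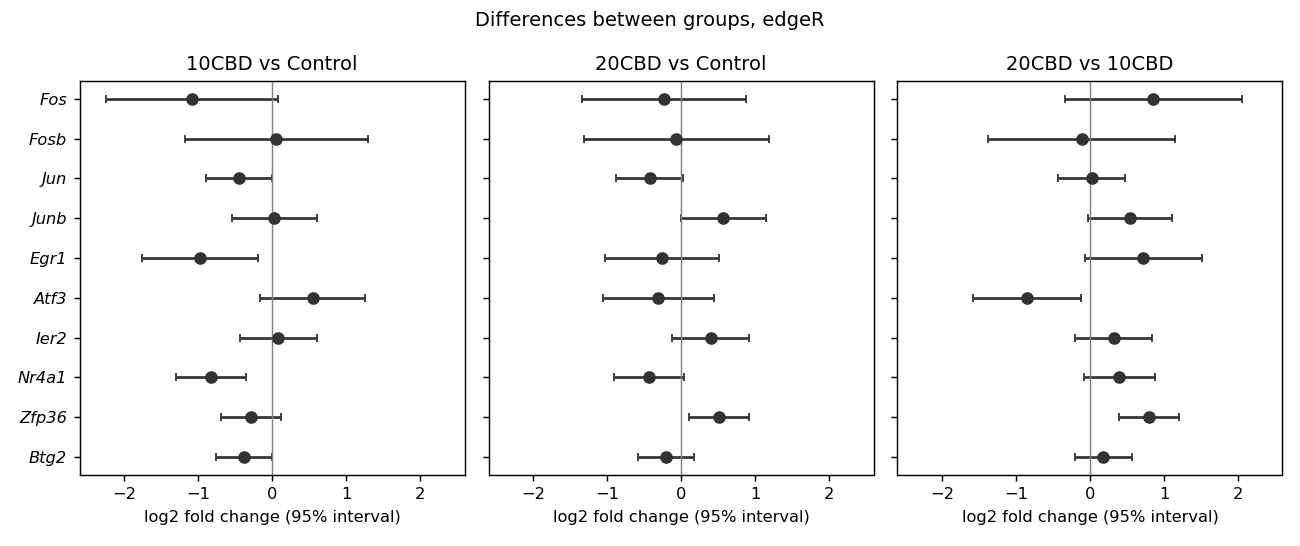
Log2 fold changes of the 10 genes in the 3 comparisons of groups from edgeR, with 95% intervals as bars and a line at 0. The intervals of Fos and Fosb were the widest, spanning over 2 log2 units, and those of Zfp36 and Btg2 were among the narrowest.

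The spread between mice of the same group was wide for these genes. The SD of log2 CPM within groups had a median of 0.42 over the 10 members and 0.29 over all genes tested, and 9 of the 10 lay above the latter. Fos (SD 0.90, percentile 98.2 of all genes tested), Fosb (0.87, percentile 97.8) and Egr1 (0.64, percentile 91.7) were the members with the widest spread. Atf3 was at percentile 81.7, Junb at 78.1 and Ier2 at 65.8. Jun, Nr4a1 and Zfp36 lay nearer the middle at percentiles 60.6, 58.9 and 54.6, and Btg2 below it at 44.8. Low counts raise the SD of log2 CPM, so the biological coefficient of variation that edgeR estimates after counting error was compared with its trend over genes of like abundance. It lay above the trend for 8 of the 10 members, with 0.487 against 0.320 for Fos, 0.545 against 0.317 for Fosb and 0.356 against 0.196 for Egr1. The gap was smaller for Junb (0.264 against 0.207), Jun (0.214 against 0.178) and Zfp36 (0.195 against 0.175). It was slight for Nr4a1 (0.221 against 0.211) and Ier2 (0.237 against 0.229). Atf3 (0.274 against 0.305) and Btg2 (0.183 against 0.191) lay below the trend. The share of all genes tested that lay above the trend was not computed.

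The spread also differed between the groups. The median SD of the 10 members was 0.47 in Control, 0.31 in 10CBD and 0.50 in 20CBD, whereas over all genes tested it was 0.22, 0.28 and 0.29. The smallest of the 3 group SDs fell in 10CBD for 6 of the 10 members and for 28.5% of all genes tested. Junb was the extreme case, with an SD of 0.080 in 10CBD, 0.57 in Control and 0.56 in 20CBD. Zfp36 went the other way, with 0.099 in Control and 0.48 in 10CBD. No test of the differences in spread was made.

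**Figure D3:**
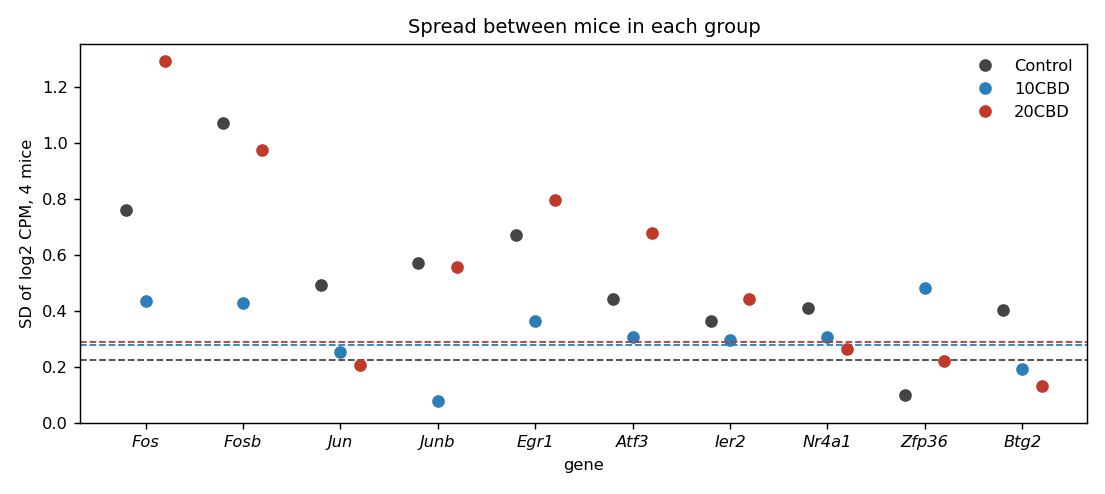
SD of log2 CPM over the 4 mice of each group for each gene, with dashed lines at the median over all genes tested in the group of the same colour. Blue points (10CBD) lay lowest for Fos, Fosb, Junb, Egr1, Atf3 and Ier2, and the Zfp36 point of Control lay at 0.099.

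Within groups the genes tended to rise and fall together in the same mice. Control 1 was above the group mean for all 10 genes and highest for 8 of them, and Control 4 was below it for all 10 and lowest for 8. In 20CBD, mouse 2 was above the group mean for all 10 and mouse 1 was lowest for 8. The mean deviation over the 10 genes was 0.57 log2 units in Control 1, −0.57 in Control 4, 0.50 in 20CBD 2 and −0.49 in 20CBD 1. In 10CBD no mouse deviated by more than 0.14, and the genes split between mice. The mitochondrial shares were 12.8% and 13.5% in Control 1 and 4, and 20.6% and 23.4% in 20CBD 1 and 2, the highest of all libraries. Of the 4 libraries with a low share, all 4 lay above their group mean for Ier2. For Junb, Btg2 and Atf3 3 of them did, for Fos, Fosb, Egr1 and Zfp36 2, and for Jun and Nr4a1 1. The part of the mitochondrial share in the joint variation was not tested.

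**Figure D4:**
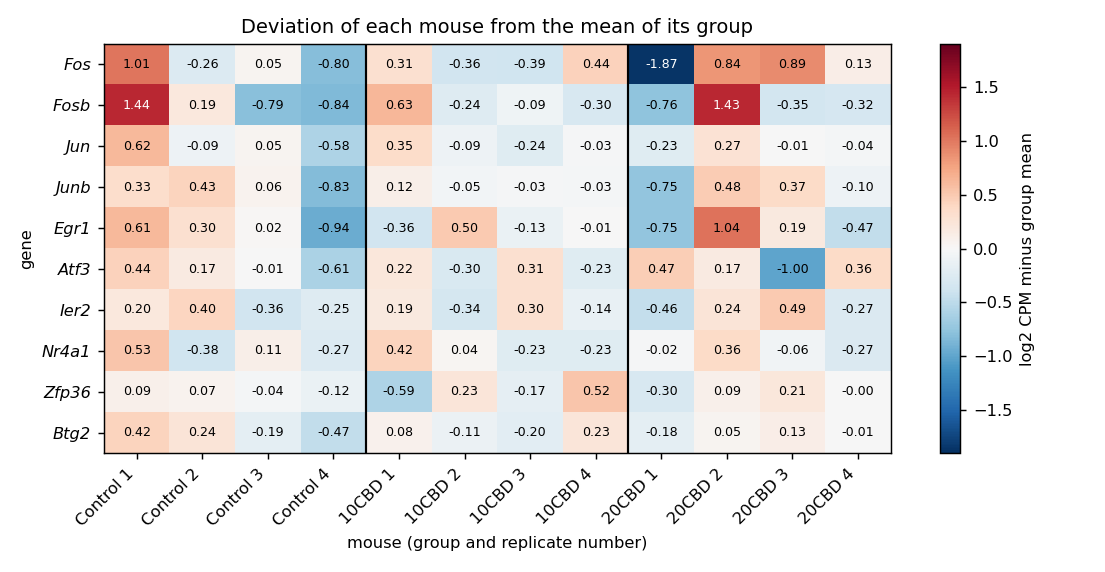
Log2 CPM of each gene in each mouse minus the mean of the mouse's group, with red above and blue below the group mean. The columns of Control 1 and 20CBD 2 were above it throughout and that of Control 4 below it throughout, while Atf3 in 20CBD 1 (0.47) went against the other genes of that mouse.

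Across the 12 mice, with group means removed, 41 of the 45 pairs of members had a positive correlation and 22 (48.9%) had a Pearson r over 0.5. Among pairs drawn from all genes tested, 49.9% were positive and 14.8% over 0.5. The median over pairs was r = 0.476 and Spearman's rho = 0.483, and it was r = 0.363 without Control 1 and Control 4, the mice farthest from the middle, when 32 pairs were positive and 16 over 0.5. The next farthest, 20CBD 2 and 20CBD 1, with mean deviations of 0.50 and −0.49 log2 units, stayed in. Correlations without them as well were not computed, so the part of these few mice is not known. All points share their libraries, and members are not independent of each other, so these are descriptions without a test. The closest pair was Junb with Egr1 (r = 0.835) and the most opposed was Atf3 with Zfp36 (r = −0.416). Correlated with the mean of the standardized members, of which each is itself a part, Junb (r = 0.90), Jun (0.89), Fosb (0.88), Btg2 (0.85), Egr1 (0.85) and Fos (0.83) were closest. Ier2 (0.63) and Nr4a1 (0.61) followed, and Zfp36 (0.29) and Atf3 (0.23) were the least tied to it.

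Genes outside the list were ranked by their correlation with the same mean over the 12 mice. The 10 highest were Rgcc, a cell cycle regulator, Hspb1, a small heat shock protein, Paqr8, a membrane progestin receptor, an Ensembl gene that was not matched to a name, the non-coding Gm4221, Sbsn, the non-coding Gm64465, Bcl2l2, a survival gene of the BCL2 family, Chrnb1, a muscle acetylcholine receptor subunit, and 2310034G01Rik. Their r ran from 0.933 for Rgcc, with rho of 0.867 and r of 0.896 without Control 1 and Control 4, to 0.849 for 2310034G01Rik. Rgcc had 103 to 335 counts and Hspb1 39 to 104, while 5 of the 10 stayed under 40 counts in every library. Of the listed early response genes, Klf10, a Krüppel-like factor induced by TGF-beta, came closest (r = 0.835, rank 19 of all genes), followed by Ccn1, a matricellular protein and a target of YAP and SRF (0.735), and Cebpb, a basic leucine zipper factor (0.716). The ranking was made over the genes tested and says nothing of shared control.

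Other genes of the early response were taken from 6 lists, which were chosen with earlier results of these data known. Of their 94 genes, 81 had enough counts to be tested. By the edgeR test, 0 of the 81 were called in 10CBD against Control, 1 in 20CBD against Control, 0 between the doses and 0 for the mean of both doses. Of all genes tested, 0.0291%, 0.303%, 0% and 0.14% were called in these comparisons. Klf2, a Krüppel-like factor of endothelium that responds to flow, was the gene called. It was at 9.90 ± 1.34 CPM in Control, 13.2 ± 1.85 in 10CBD and 19.1 ± 4.82 in 20CBD (SD, n = 4 each), with ranges of 8.82 to 11.6 in Control and 14.7 to 24.2 CPM in 20CBD that did not overlap. In this comparison 5 of the 81 were higher without overlap, beside 2.67% of all genes tested. The log2 fold change of Klf2 in 20CBD was 0.95 (SE 0.18, edgeR adjusted p = 0.0567). The call was lost without Control 1, 2 or 4 or 20CBD 2 or 3, with edgeR adjusted p from 0.131 to 0.204, while the log2 fold change stayed between 0.81 and 1.05 whichever library was left out.

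By list, none of the 10 tested AP-1 and ATF factors, 18 feedback inhibitors, 20 upstream ERK, SRF and CREB genes and 21 further early response genes was called in any comparison, nor any early transcription factor besides Klf2 among 10. At an unadjusted edgeR p under 0.05, 5 of the 81 were higher and 7 lower in 10CBD than in Control, 14 higher and 4 lower in 20CBD than in Control, and 10 higher and 0 lower in 20CBD than in 10CBD. For the mean of both doses 9 were higher and 7 lower. The shares of all genes tested that were higher and lower by this measure were 3.33% and 2.34%, 4.92% and 3.53%, 3.47% and 2.84%, and 4.09% and 2.95% in the 4 comparisons. The median log2 fold changes of the 81 were −0.020, 0.0075, 0.13 and −0.012, beside 0.012, 0.015, −0.0033 and 0.013 over all genes tested. The 4 listed genes at the ends of the range in 10CBD against Control were, besides Il1b, Plk3, a stress-induced kinase (log2 −0.75, SE 0.27), and the growth arrest genes Gadd45g (0.58, SE 0.23) and Gadd45a (0.76, SE 0.32). In 20CBD against Control they were Egr2, a relative of Egr1 (−0.80, SE 0.57), Ccn1 (−0.78, SE 0.25), Cebpb (1.04, SE 0.44) and Cxcl1. Between the doses they were Ier5, another early gene (−0.41, SE 0.30), Tob1, an antiproliferative relative of Btg2 (−0.31, SE 0.18), Cxcl1 (0.97, SE 0.38) and Batf, a basic leucine zipper partner of JUN proteins (1.12, SE 0.48). For the mean of both doses they were Il1b (−1.07, SE 0.32), Egr2 (−0.72, SE 0.47), Gadd45g (0.69, SE 0.20) and Cebpb (0.75, SE 0.39). None of these passed the test.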

How the data were processed

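Kidney RNA of 12 mice was sequenced as directional poly(A) libraries (CORALL mRNA-Seq V2), with 4 mice in each of 3 groups assigned from the sample titles. The authors mapped the reads to GRCm39 with STAR and counted them per gene with htseq-count, and the submitters' processing notes name STAR 2.7.5c and HTSeq 1.99.2. The deposited files hold raw counts of 1 library each, and their 5 summary lines were left out. The annotation release, the strand setting and any removal of duplicate reads were not given in the sources used here, so antisense or overlapping genes and counting error carry that limit. Identifiers were matched to GENCODE vM39 (99.0% of 57180).

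The counts were analysed with edgeR 4.0.16 in R 4.3.3: filterByExpr with the groups, TMM, and a quasi-likelihood fit with a mean per group over all 12 libraries. The study's own test, DESeq2, served as an alternative (version 1.42.0), as did limma-voom (limma 3.58.1). P-values were adjusted by Benjamini-Hochberg over 17163 genes and called under 0.1, the study's threshold. Log2 CPM used a prior count of 2. For each member, a two-sided exact permutation test of mean log2 CPM used all 70 arrangements of 4 mice against 4. Scripts were tested on simulated data. The replicates were separate mice.

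Named genes were all 10 members, the pathway genes called in any comparison, the 2 largest and 2 smallest log2 fold changes of the pathway lists per comparison, and the 10 genes most correlated with the members over mice. The members and lists were chosen with earlier results of these data known. Alternatives were other normalizations, tests, filters, thresholds, models and covariates, the replicate number as a block, and leaving out each library.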

Additional observations from a re-analysis of the deposited data

Results flagged for a closer look

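In groups of 4 mice, 66 sets of values (the members and the named pathway genes in each group) were examined for a single mouse far from the others, and 2 were found by Dixon's criterion, which chance meets in about 1 in 20 groups. Junb in 10CBD 1 was at 9.02 CPM, while the other 10CBD mice lay between 7.98 and 8.13 CPM. The gap was large only against the very narrow range of that group, and the value lay inside the Control range. Cxcl1 in 20CBD 2 was at 0.479 CPM, while the other 20CBD mice lay between 0.879 and 0.960 CPM, with 8 counts behind the low value.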

How the results depend on the processing

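The count of members called stayed at 0 in each comparison under RLE and upper-quartile normalization, DESeq2, limma-voom, the stricter filter, the stricter threshold, both mitochondrial settings, the model of only the groups compared and without any 1 library. Without a filter on low counts it was 2 in 10CBD against Control (Egr1 and Nr4a1), 0 in 20CBD against Control, 2 between the doses (Egr1 and Zfp36) and 3 for the mean of both doses (Jun, Egr1 and Nr4a1), while calls over all genes rose from 5, 52, 0 and 24 to 331, 416, 256 and 393 of 40012; the cause was not tested. Pathway genes called without the filter were 7, 8, 2 and 8. In 20CBD against Control, where 1 was called, the count was 0 at an adjusted p under 0.05, 2 with upper-quartile normalization, 3 with DESeq2, 2 with at least 10 counts in every library, 2 with only the groups compared, 16 with the mitochondrial share as a covariate, 2 within libraries of at least 10% mitochondrial counts and 0 to 2 with 1 library left out. For the mean of both doses it was 2 with DESeq2, 4 with the covariate and 0 to 1 with 1 library left out. Over all genes tested, calls in 20CBD against Control were 53 with upper-quartile normalization, 182 with DESeq2 and 1386 with the covariate. They were 55 of 14374 with the stricter filter and 47 of 16499 with only the groups compared. Within libraries of at least 10% mitochondrial counts they were 107 of 17512, and with 1 library left out 14 to 54. For the mean of both doses they were 136 with DESeq2, 276 with the covariate and 8 to 35 with 1 library left out.

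Same-numbered mice of different groups had correlations from −0.330 to 0.317, 4 of 12 over 0.1, and different-numbered mice from −0.427 to 0.445. Whether the numbers pair the samples was not given in the sources used here. These correlations cannot decide it, since a shared number need not leave a mark on all genes. With the replicate number as a block 0 members were called, the pathway count in 20CBD against Control was 0 (Klf2 adjusted p = 0.138), Fosb turned to 0.079 in 20CBD and 0.16 for the mean of both doses, and calls over all genes were 4, 27, 0 and 17.

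Log2 fold changes of some single genes changed direction, and the cause was not tested. Within the libraries of at least 10% mitochondrial counts, 10CBD 2 and 10CBD 4 were the only 10CBD mice. There the changes of direction were Fosb in 10CBD (−0.38), in 20CBD (0.046) and between the doses (0.43), Ier2 (−0.046) and Zfp36 (0.060) in 10CBD, and Ier5 between the doses (0.084). With the mitochondrial covariate they were Junb (−0.015) and Ier2 (−0.026) in 10CBD. Without a covariate, Fosb in the mean of both doses changed direction to 0.00625 with DESeq2 and 0.15 with limma-voom. Leaving out 1 library gave log2 ranges that crossed 0 for Fosb (−0.24 to 0.87, −0.89 to 0.76, −0.94 to 0.18 and −0.42 to 0.81 in the 4 comparisons), Junb (−0.18 to 0.17) and Ier2 (−0.033 to 0.23) in 10CBD, Fos in 20CBD (−0.51 to 0.28), Jun between the doses (−0.076 to 0.16) and Atf3 for the mean of both doses (−0.054 to 0.30). The median log2 fold change of the members without 1 library ran from −0.45 to −0.21, −0.40 to 0.13, 0.25 to 0.47 and −0.36 to 0.00355, with the value above 0 for the mean of both doses when Control 1 was left out, and the median SD within groups from 0.36 to 0.44. With 4 mice a group, the width of the intervals for Fos, Fosb and Atf3, which rest on as few as 3, 8 and 7 counts, limits what differences could be seen.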
